A study of Mus musculus with 6 samples.

Results

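The 10 genes described here encode enzymes that remove superoxide and peroxides: the superoxide dismutases *Sod1* and *Sod2*, the peroxiredoxins *Prdx1*, *Prdx2*, *Prdx3*, *Prdx5*, and *Prdx6*, and the glutathione peroxidases *Gpx1*, *Gpx3*, and *Gpx4*. They were taken by name from 56923 genes listed, 27480 of them with reads in these libraries, and the choice of the group was made with earlier results of these data known. mRNA-Seq measured gene expression in the left ventricle (LV) of 3 WT and 3 *Lztr1* R409C/+ male mice, each sequenced as its own library at an age of 12 weeks. LZTR1 is the substrate adaptor of a cullin ubiquitin ligase that degrades RAS proteins, and R409C is the mouse counterpart of a dominant allele found in patients with Noonan syndrome, a disorder that often affects the heart. The comparison asks which transcripts differed in the mutant LV at this age. The allele was knocked in at the endogenous *Lztr1* locus with CRISPR/Cas9 and is carried on 1 chromosome in every cell, on a C57BL/6J background that both groups share. The labels name no treatment, and the hearts of both groups were perfused with PBS. The sample labels give the genotype as Wild-type or Mutant and the tissue as heart. They give an age and number the replicates but do not say whether these are separate animals. Each replicate is treated here as 1 mouse, and p-values measure the spread between these samples.

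Superoxide, which leaks from the respiratory chain and is made by NADPH oxidases, is converted to hydrogen peroxide by SOD1 in the cytosol and SOD2 in the mitochondrial matrix. Hydrogen peroxide is then reduced by peroxiredoxins, which use a reactive cysteine and are mostly recharged by thioredoxin, and by glutathione peroxidases, which use glutathione and, in GPX1, GPX3, and GPX4, a selenocysteine. Cardiomyocytes are dense in mitochondria, and the mitochondrial enzymes SOD2, PRDX3, and PRDX5 and the membrane lipid peroxidase GPX4 are prominent there.

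The active site divides the peroxidases in the genome sequence, and it is shown here as a description, chosen with the values known. *Gpx1* and *Gpx4*, with the largest differences between genotypes, are on the selenocysteine side. *Gpx3*, whose groups overlapped, is on that side too, and a part of the active site in the differences was not tested. In each glutathione peroxidase, 1 in-frame TGA, which would otherwise end translation, is read as selenocysteine. The 27 bases around it in GRCm39, read along the coding strand with the TGA in capitals, are:
Gpx1: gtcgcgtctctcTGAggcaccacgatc
Gpx3: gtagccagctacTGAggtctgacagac
Gpx4: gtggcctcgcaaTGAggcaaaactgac

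These TGA codons lie in coding exon 1 of *Gpx1* (codon 47, chr9:108216650-108216652), coding exon 2 of *Gpx3* (codon 73, chr11:54798082-54798084), and coding exon 3 of *Gpx4* (codon 73, chr10:79890571-79890573), all on the plus strand. The peroxiredoxin coding sequences held 0 in-frame TGA codons before their stop. In their place the codon of the peroxidatic cysteine, the residue that meets the peroxide, is in capitals:
Prdx1: tttacttttgtgTGTcccacggagatc
Prdx2: ttcacttttgttTGCcccacggagatc
Prdx3: ttcacatttgtgTGTcctacagaaatt
Prdx5: tttacacctggcTGTtctaagacccac
Prdx6: tttaccccagtgTGCaccacagaactt

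These cysteine codons lie at chr4:116549020-116549022 in *Prdx1*, chr8:85697112-85697114 in *Prdx2*, chr19:60858565-60858567 in *Prdx3*, chr19:6885356-6885358 in *Prdx5*, and chr1:161074938-161074940 in *Prdx6*. The last 3 of these genes are on the minus strand. *Prdx3* and *Prdx5* are the mitochondrial peroxiredoxins, *Prdx1* and *Prdx2* are cytosolic, and PRDX6 is the peroxiredoxin that works with a single cysteine and with glutathione.

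Library totals lay between 66130887 and 72641124 counts, and 3 counts corresponded to between 0.0317 and 0.0541 CPM, the unit of read counts brought to a common library size, here with TMM factors. Each of the 10 genes had between 2368 and 44002 counts in every mouse, so counting error was small beside the spread between mice. The libraries differed in the share of counts from 37 mitochondrially encoded genes. WT replicate 3 had 13.8% and R409C/+ replicate 1 had 45.4%, and the other 4 libraries had between 29.7% and 37.3%. Values without 1 or both of these libraries are given beside several results below. Cardiomyocyte markers had the highest sum of the marker lists in every library, with a level of between 33444 and 48932 CPM over 10 genes, and 6 atrial markers summed to between 39.5 and 111 CPM. *Lztr1* itself had 24.2, 24.2, and 22.2 CPM in WT and 23.9, 27.9, and 25.3 CPM in R409C/+ mice, in replicate order, and these counts per gene cannot show the allele.

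All 10 genes passed the filter on low counts, and 0 of 10 differed between genotypes at an adjusted p under 0.05 with edgeR's quasi-likelihood test. That threshold was passed by 0.0349% of the 17212 genes tested in the higher direction, 0.00581% in the lower, and 0.0407% in either. At an unadjusted p under 0.05, *Gpx1* and *Gpx4* were higher in R409C/+ mice (2 of 10), and 0 of 10 were lower. The background at this threshold was 5.77% higher, 2.86% lower, and 8.63% in either direction. The same 2 genes were the only ones of the 10 whose 3 R409C/+ values all lay on the same side of the WT range. Over all genes tested, groups that did not overlap made up 8.3% in the higher direction, 7.23% in the lower, and 15.5% together. Of the 10 log2 fold changes, 6 were above 0, against 51.4% over all genes tested, and their median was 0.041 against 0.012 over all genes.

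**Figure D1:**
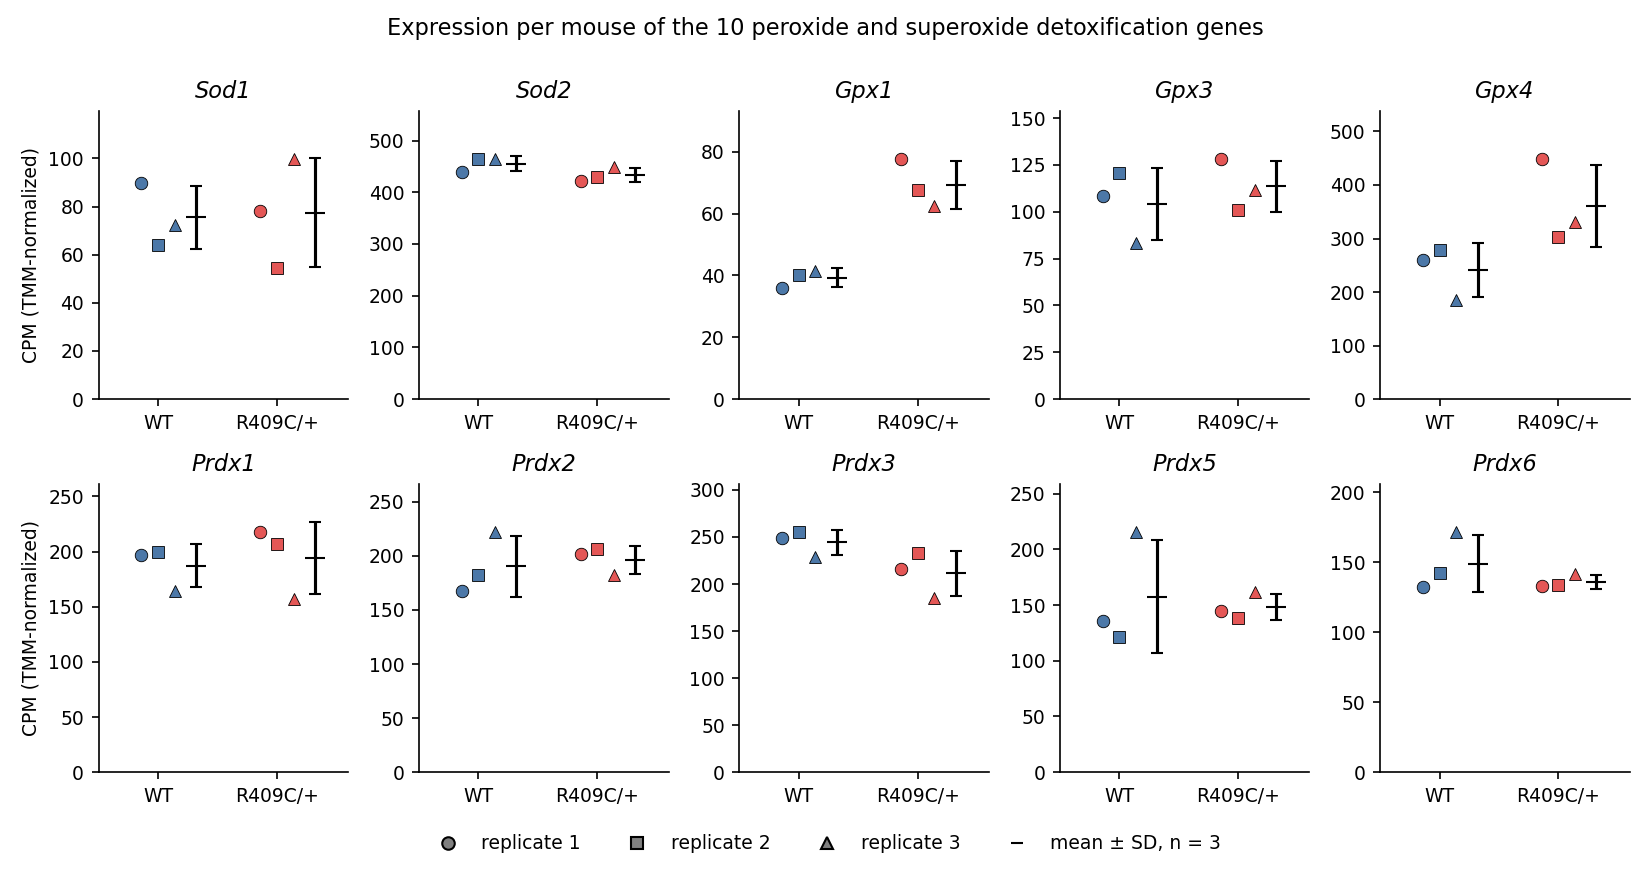
CPM (y axis, from 0, with a scale of its own in each panel) of the 10 genes in WT (blue) and R409C/+ (red) mice (x axis), 1 point per mouse with the shape giving the replicate number, and bars for the mean ± SD of 3 mice. The groups separate for *Gpx1* (35.8 to 41.6 against 62.5 to 77.7 CPM) and *Gpx4* (184 to 279 against 304 to 449 CPM) and overlap in the other 8 panels.

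*Gpx1* (ENSMUSG00000063856.9, chr9:108216102-108217546), the cytosolic and mitochondrial glutathione peroxidase, had 35.8, 40.3, and 41.6 CPM in WT mice and 77.7, 67.6, and 62.5 CPM in R409C/+ mice. The highest WT mouse was well below the lowest R409C/+ mouse. WT mice averaged 39.2 ± 3.02 CPM and R409C/+ mice 69.3 ± 7.74 CPM (SD, n = 3 each), a log2 fold change of 0.82 (SE 0.15, 95% interval 0.48 to 1.15), or 1.76-fold with an interval of 1.40 to 2.22. The unadjusted p of edgeR's quasi-likelihood test was 0.000173, and its adjusted p over all genes was 0.142. The two-sided exact permutation test of 3 mice against 3 gave p = 0.1, the smallest that this design allows.

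The call on *Gpx1* depended on the test, while its size depended little on the mice. DESeq2's Wald test gave a log2 fold change of 0.81 with an adjusted p of 0.00142, and edgeR's exact test gave 0.82 with an adjusted p of 0.00206. Over all 17 alternatives, which also include edgeR's quasi-likelihood test under other settings, the adjusted p ranged from 0.00142 to 0.976. Leaving out each mouse in turn gave log2 fold changes of between 0.72 and 0.89, and leaving out both libraries with extreme mitochondrial shares gave 0.77. With scaling by library size alone the log2 fold change was 0.63 and the unadjusted p was 0.0541 with edgeR's quasi-likelihood test. It was the only alternative of the 17 in which the unadjusted p of *Gpx1* was above 0.05.

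*Gpx4* (ENSMUSG00000075706.12, chr10:79883000-79892273), which reduces lipid hydroperoxides in membranes and protects cells from ferroptosis, had 259.9, 279, and 184 CPM in WT mice. It had 449, 304, and 330.2 CPM in R409C/+ mice, with the highest WT value only a little below the lowest R409C/+ value. WT mice averaged 241 ± 50.04 CPM and R409C/+ mice 361 ± 77.2 CPM (SD, n = 3 each). The log2 fold change was 0.58 (SE 0.21, 95% interval 0.13 to 1.03), or 1.497-fold. Its unadjusted p was 0.0151 and its adjusted p 0.470 with edgeR's quasi-likelihood test, and the exact permutation test again gave 0.1, the smallest possible. The lowest WT value and the highest R409C/+ value came from the libraries with extreme mitochondrial shares. Without WT replicate 3 the log2 fold change was 0.42 (unadjusted p = 0.0630), and without R409C/+ replicate 1 it was 0.39 (unadjusted p = 0.0677), both with edgeR's quasi-likelihood test. Without both libraries it was 0.23 with an unadjusted p of 0.103.

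Reads from *Gpx4* can be shared with its transcribed processed pseudogene *Gpx4-ps2* (chr10), which had 45.7, 43.9, and 31.4 CPM in WT and 73.7, 46.2, and 62.0 CPM in R409C/+ mice. Its log2 fold change was 0.59 (SE 0.20, unadjusted p = 0.0130 with edgeR), and 0.27 (unadjusted p = 0.146) without both libraries with extreme mitochondrial shares. With the counts of both added together, *Gpx4* had a log2 fold change of 0.58 and an adjusted p of 0.471 with edgeR's quasi-likelihood test, so the split of reads between them did not move the value. A correction for gene length lowered both log2 fold changes, *Gpx1* to 0.64 (unadjusted p = 0.00122) and *Gpx4* to 0.40 (unadjusted p = 0.0712), in the edgeR fit.

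*Gpx3* (ENSMUSG00000018339.13, chr11:54793279-54802424), the secreted glutathione peroxidase of plasma, which the heart also makes, had 108, 121, and 83.3 CPM in WT and 128, 101, and 112 CPM in R409C/+ mice. The ranges overlapped, and the means were 104 ± 19.1 and 114 ± 13.7 CPM (SD, n = 3 each). The log2 fold change of 0.12 (SE 0.18, 95% interval -0.26 to 0.51) had an adjusted p of 0.886 with edgeR's quasi-likelihood test. *Gpx3* thus differed by less than the spread between mice, and its fold change was below 0 in 4 alternatives.

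Within the glutathione peroxidases, the share of each gene does not depend on how libraries are scaled. *Gpx3* made up 26.8%, 27.5%, and 26.9% of the summed CPM of the 3 genes in WT mice and 19.6%, 21.4%, and 22.1% in R409C/+ mice. Every R409C/+ share lay below every WT share, with means of 27.1% ± 0.361 and 21.0% ± 1.31 (SD, n = 3 each). A share also depends on the other genes of the family, and the CPM of *Gpx3* itself was not lower (log2 fold change 0.12). The lower share is therefore not a lower level of *Gpx3*. The shares of *Gpx1* (10.5% in WT and 12.9% in R409C/+ mice, on average) and *Gpx4* (62.4% and 66.1%) overlapped between the groups. The summed level of the 3 genes was 404, 440.3, and 309 CPM in WT and 655, 472, and 504 CPM in R409C/+ mice, also without overlap.

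The 2 superoxide dismutases did not separate the genotypes. *Sod2* (ENSMUSG00000006818.6, chr17:13224095-13259591), the manganese enzyme of mitochondria, had 439, 464, and 465 CPM in WT and 421, 429.6, and 448 CPM in R409C/+ mice. It was the most even of the 10 genes, with coefficients of variation of 3.23% in WT and 3.13% in R409C/+ mice. Its log2 fold change was -0.073 (SE 0.15, 95% interval -0.40 to 0.25) with an adjusted p of 0.926 in edgeR's quasi-likelihood test. *Sod1* (ENSMUSG00000022982.11, chr16:90017408-90027657), the copper-zinc enzyme of the cytosol, had 89.9, 64.1, and 72.5 CPM in WT and 78.1, 54.5, and 99.8 CPM in R409C/+ mice. Both the lowest and the highest value came from R409C/+ mice. The log2 fold change was 0.037 (SE 0.22, 95% interval -0.43 to 0.51), with an adjusted p of 0.975 in the same edgeR test.

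*Prdx3* (ENSMUSG00000024997.8, chr19:60852489-60863017), the thioredoxin-dependent peroxidase of the mitochondrial matrix, had 248, 255, and 229 CPM in WT and 216, 233, and 186 CPM in R409C/+ mice. Only 1 R409C/+ mouse was above the lowest WT mouse. The means were 244 ± 13.7 and 211 ± 24.0 CPM (SD, n = 3 each), and the log2 fold change was -0.21 (SE 0.16, 95% interval -0.55 to 0.13) with an adjusted p of 0.756 in edgeR's quasi-likelihood test. It was -0.12 without R409C/+ replicate 3 and below 0 in all 17 alternatives, and its unadjusted p was under 0.05 in 1 of them, the gene length correction (-0.37, unadjusted p = 0.0476 with edgeR).

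*Prdx5* (ENSMUSG00000024953.18, chr19:6884065-6887792), the peroxiredoxin found in mitochondria, peroxisomes, and cytosol, had 136, 121, and 216 CPM in WT and 145, 138, and 162 CPM in R409C/+ mice. WT replicate 3, the library with few mitochondrially encoded counts, was the highest of the 6. The log2 fold change of -0.088 (SE 0.21, 95% interval -0.54 to 0.37) became 0.20 without that library. Neither value passed the test, and the adjusted p with all mice was 0.939 in edgeR's quasi-likelihood fit.

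*Prdx1* (ENSMUSG00000028691.13, chr4:116532123-116558398), a cytosolic peroxidase, had 197, 199.8, and 164 CPM in WT and 218, 207, and 157 CPM in R409C/+ mice. The third replicate was the lowest in both groups, and the ranges overlapped widely. Its log2 fold change was 0.052 (SE 0.17, 95% interval -0.33 to 0.43, adjusted p = 0.958 with edgeR's quasi-likelihood test). *Prdx2* (ENSMUSG00000005161.16, chr8:85693354-85702350), also cytosolic and abundant in red cells, had 167, 182, and 222 CPM in WT and 202, 206, and 182 CPM in R409C/+ mice. All 3 R409C/+ values lay inside the WT range. The log2 fold change was 0.045 (SE 0.16, 95% interval -0.31 to 0.40, adjusted p = 0.959 with the same edgeR test).

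*Prdx6* (ENSMUSG00000026701.16, chr1:161051417-161079098), which also has phospholipase activity, had 133, 142, and 172 CPM in WT and 133, 134, and 142 CPM in R409C/+ mice. The R409C/+ values were tightly grouped at the lower end of the WT range. The log2 fold change of -0.13 (SE 0.16, 95% interval -0.47 to 0.21) had an adjusted p of 0.857 with edgeR's quasi-likelihood test, and it was -0.018 without WT replicate 3. The 5 peroxiredoxins together summed to 928 ± 65.1 CPM in WT and 887 ± 50.7 CPM in R409C/+ mice (SD, n = 3 each), with overlap, and the share of each within the family overlapped between the groups too. Few reads were assigned to copies of these genes: *Prdx2-ps1* had 31 counts over the 6 mice, and *Prdx1-ps*, *Prdx2-ps2*, *Prdx6b*, and *Prdx6-ps2* had 0.

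**Figure D2:**
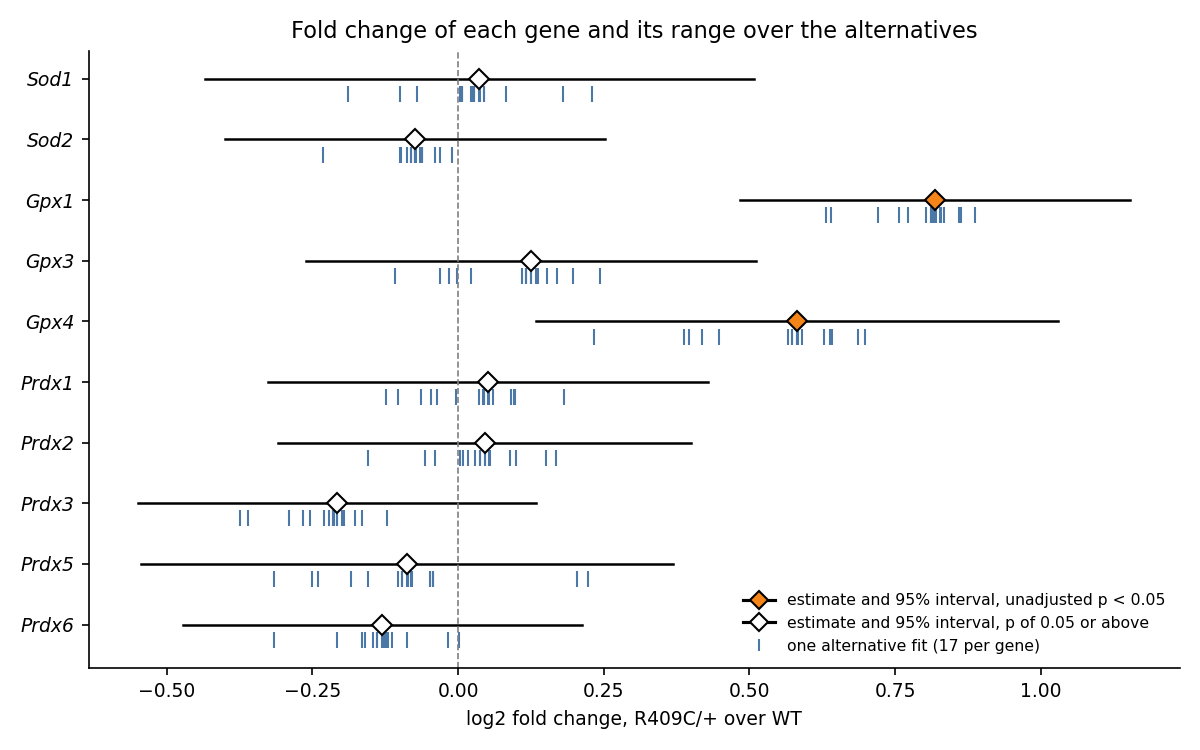
Log2 fold change of R409C/+ over WT mice (x axis, 0 dashed) for each of the 10 genes (y axis), with the edgeR estimate as a diamond, its 95% interval as a line, and each of 17 alternative fits as a tick below. Diamonds are filled where the unadjusted p is under 0.05, which holds for *Gpx1* (0.82) and *Gpx4* (0.58), and the ticks of *Sod1*, *Prdx1*, *Prdx2*, *Prdx5*, *Prdx6*, and *Gpx3* lie on both sides of 0.

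The intervals state how large a difference the data allow for the 8 genes that did not separate. Their lower 95% bounds on the log2 scale lay between -0.55 (*Prdx3*) and -0.26 (*Gpx3*), and their upper bounds lay between 0.13 (*Prdx3*) and 0.51 (*Gpx3* and *Sod1*). A fold change the size of that of *Gpx1* lies outside all 8 intervals, and equality of the genotypes is not shown by any of them.

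Ratios of counts between genes of the same mouse do not depend on scaling. Those that separated the genotypes all hold *Gpx1* or *Gpx4*, whose CPM already did, so they add no separate support. How often ratios of other gene pairs separate was not computed. The ratio of *Gpx1* to *Sod2* was 0.0817, 0.0869, and 0.0895 in WT and 0.184, 0.157, and 0.140 in R409C/+ mice. Between *Gpx1* and *Prdx3*, the ratio was 0.144, 0.158, and 0.182 in WT and 0.360, 0.290, and 0.337 in R409C/+ mice. In both, every R409C/+ mouse was above every WT mouse. The ratio of *Gpx4* to *Prdx3* was 1.05, 1.09, and 0.806 in WT and 2.08, 1.30, and 1.78 in R409C/+ mice, again without overlap. With *Gpx1* as the denominator, the ratio of *Gpx3* to *Gpx1* was lower in every R409C/+ mouse than in every WT mouse. It was 3.02, 3.00, and 2.004 in WT and 1.65, 1.49, and 1.78 in R409C/+ mice. The ratio of *Sod2* to *Sod1* (4.88, 7.23, and 6.41 in WT and 5.40, 7.88, and 4.49 in R409C/+ mice) overlapped between the groups. So did those of *Prdx3* to *Prdx2*, *Prdx1* to *Prdx2*, *Prdx3* to *Sod2*, and *Gpx4* to *Gpx1*. A ratio shows unequal levels of 2 genes and not which of them differed.

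**Figure D3:**
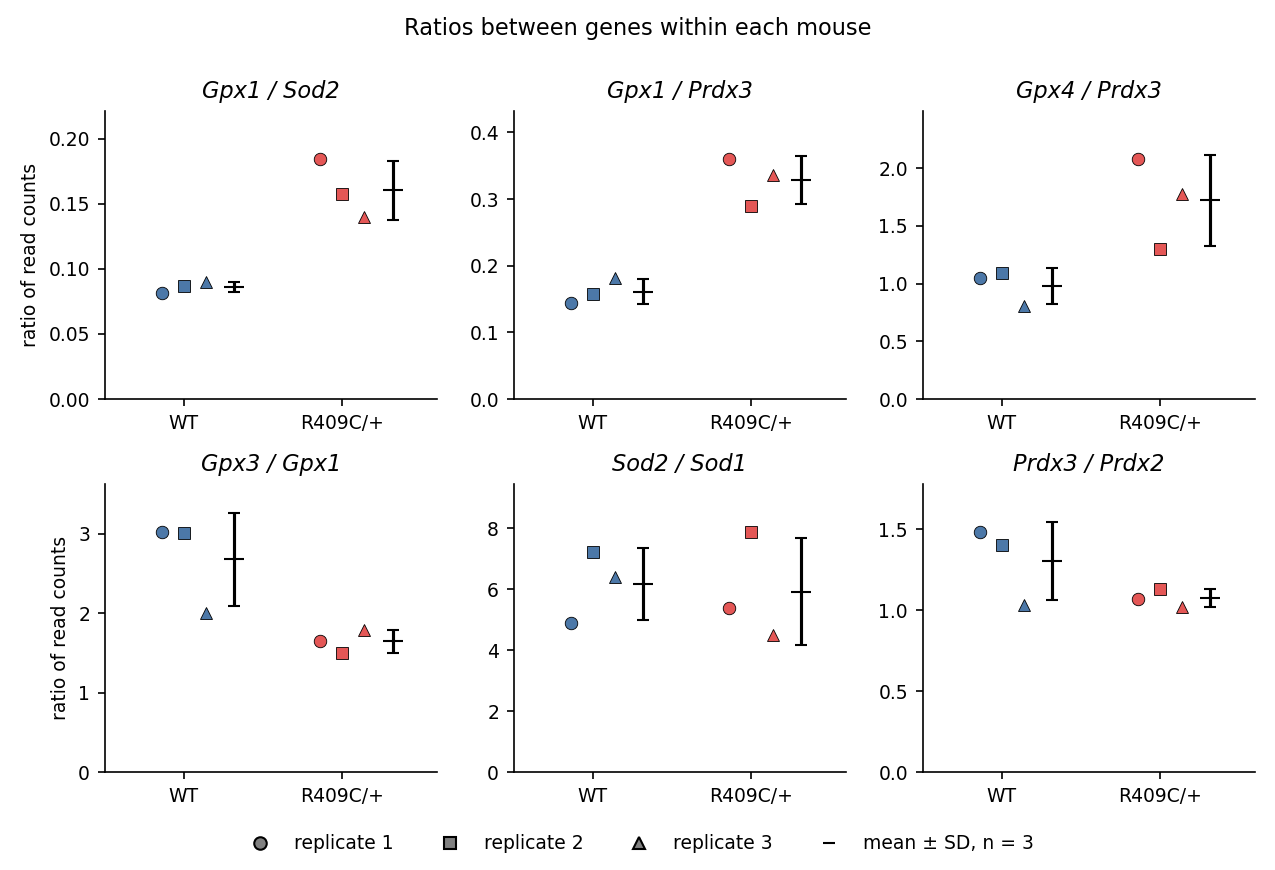
Ratio of read counts between genes (y axis, from 0, with a scale of its own in each panel) in WT (blue) and R409C/+ (red) mice (x axis), 1 point per mouse and bars for the mean ± SD of 3 mice. The ratios of *Gpx1* to *Sod2* (0.0817 to 0.0895 against 0.140 to 0.184), *Gpx1* to *Prdx3*, *Gpx4* to *Prdx3*, and *Gpx3* to *Gpx1* separate the groups, and those of *Sod2* to *Sod1* and *Prdx3* to *Prdx2* overlap.

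Summed macrophage markers separated the genotypes as *Gpx1* and *Gpx4* did, and most other marker sums overlapped. All 12 macrophage markers were listed and none was at 0, and their summed level was 234 to 273 CPM in WT and 401 to 507 CPM in R409C/+ mice, without overlap. Of these 12 genes, 11 were higher at an unadjusted p under 0.05 and 2 of them at an adjusted p under 0.05 with edgeR, with a median log2 fold change of 1.12. The 6 adipocyte markers summed to 149 to 199 CPM in WT and 233 to 264 CPM in R409C/+ mice, with *Lep* at 0 in every mouse. Only 1 of the 6 was abundant enough to test, so this sum is mostly that gene and not a reading of adipocytes. Red cell markers, of which 7 of 8 were listed, summed to 579 to 1479 CPM in WT and 1043 to 2626 CPM in R409C/+ mice, with overlap. All 6 red cell markers tested had a log2 fold change above 0, with a median of 0.99, and 3 of them were higher at an unadjusted p under 0.05. Summed fibroblast, endothelial, smooth muscle, and cardiomyocyte markers overlapped as well. At that threshold 3 of 8 fibroblast markers and 1 of 8 endothelial markers were higher, 2 of 6 smooth muscle markers were lower, and 0 of 10 cardiomyocyte markers differed. The part of these cells in the levels of *Gpx1* and *Gpx4* was not tested, and in bulk tissue fewer or more cells of a type cannot be told apart from less or more RNA per cell.

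**Figure D4:**
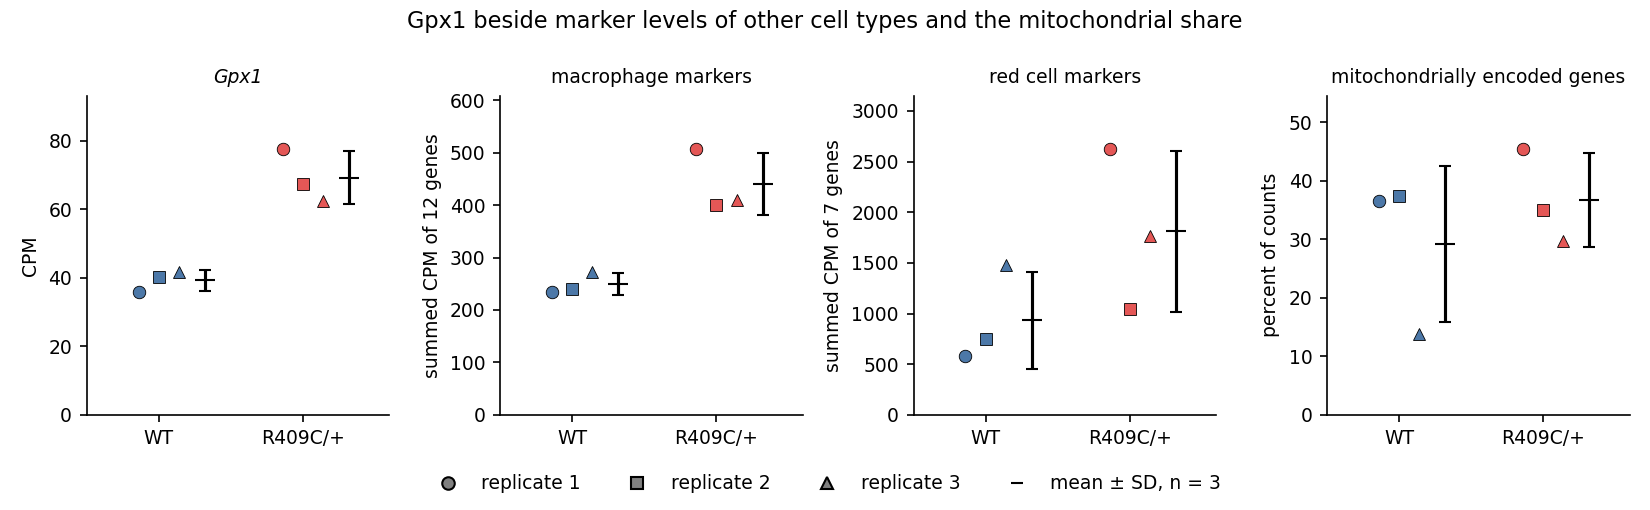
*Gpx1* in CPM, the summed CPM of 12 macrophage markers and of 7 red cell markers, and the percent of counts from mitochondrially encoded genes (y axes, from 0) in WT (blue) and R409C/+ (red) mice, 1 point per mouse and bars for the mean ± SD of 3 mice. *Gpx1* and the macrophage markers (234 to 273 against 401 to 507 CPM) separate the groups, and the red cell markers and the mitochondrial share (13.8% to 37.3% against 29.7% to 45.4%) overlap.

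The 10 genes were all well expressed in the LV. Per kilobase of merged exons, *Prdx3* had the highest level in WT mice (149 ± 8.37 CPM per kilobase, SD, n = 3), followed by *Gpx4* (139.9 ± 29.0), whose range overlapped that of *Prdx3*. *Prdx5* (62.8), *Prdx1* (45.0), *Prdx2* (41.9), *Sod2* (34.9), *Gpx3* (34.0), *Gpx1* (27.2), *Prdx6* (16.01), and *Sod1* (8.73 CPM per kilobase) came next. Neighbours whose ranges overlapped were *Prdx1* and *Prdx2*, *Sod2* and *Gpx3*, and *Gpx3* and *Gpx1*. On this scale *Sod1* stood at the 87.4th percentile of all genes tested and *Prdx3* at the 99.3rd. In R409C/+ mice *Gpx4* came first (209 ± 44.8 CPM per kilobase) with every mouse above the highest *Prdx3* value. *Gpx1* had 47.9 ± 5.36 CPM per kilobase there, and its range overlapped that of *Prdx1*.

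This order depends on the length given to each gene. The current gene models join long exons to *Sod2* (13039 bases merged, 666 coding) and *Sod1* (8648 bases merged, 462 coding). Per kilobase of coding sequence, *Sod2* had the highest level in WT mice at 684 ± 22.1 CPM per kilobase (SD, n = 3) and *Gpx4* came second at 408 ± 84.7. *Gpx1* was last on that scale, at 65.1 ± 5.01 CPM per kilobase, and held rank 8, 9, or 10 in WT mice under merged, canonical transcript, and coding length.

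Over the 6 mice, the 10 genes did not vary as a unit. Of the 45 pairs, 19 had a Pearson correlation of log2 CPM above 0, the median was -0.065, and the range ran from -0.77 (*Prdx6* with *Gpx4*) to 0.85 (*Gpx3* with *Gpx4*). These are descriptions over 6 libraries that share depth and scaling. The genes most like the mean profile of the 10 were picked for the highest r among all genes tested. Such a pick over 6 mice gives high values by itself. The picked genes were *Psma7* (Pearson r = 0.996), a proteasome subunit gene, *Rps19* (0.992), *Zfp940* (0.987), *Gm11899* (0.984), and *Eef1a1* (0.983). *Eef1a1*, a translation elongation factor gene, had 552 ± 41.6 CPM in WT and 806 ± 216 CPM in R409C/+ mice (SD, n = 3 each), with a log2 fold change of 0.54 and an adjusted p of 0.495 in edgeR's quasi-likelihood test.

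The enzymes around the 10 genes were read from lists of the same pathway, and 0 genes of these lists passed an adjusted p of 0.05 in edgeR's quasi-likelihood test. Counts of list genes below are at an unadjusted p under 0.05 and stand beside the background of 5.77% higher and 2.86% lower. Of the other superoxide and peroxide enzymes, 6 of 10 were abundant enough to test, 0 were higher and 0 were lower, with a median log2 fold change of -0.028. Catalase (*Cat*), which splits hydrogen peroxide in peroxisomes, had 159.9 ± 40.5 CPM in WT and 150.4 ± 23.9 CPM in R409C/+ mice (SD, n = 3 each; log2 fold change -0.088). *Gpx7*, a peroxidase of the endoplasmic reticulum, was low, at 3.06 ± 0.409 and 3.96 ± 0.689 CPM, without overlap (log2 fold change 0.37, adjusted p = 0.713 with edgeR), and its log2 fold change was 0.21 without R409C/+ replicate 2. *Prdx4*, the secretory pathway peroxiredoxin, had a log2 fold change of -0.15, or -0.055 without WT replicate 3.

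The list of the thioredoxin and glutaredoxin system, which also holds genes such as *Sesn1*, *Srxn1*, and *Txnip*, had 0 higher and 1 lower of 14 tested. Its median log2 fold change was 0.055. *Sesn1*, a stress-induced inhibitor of TOR signaling, was the lower one, at 132 ± 13.4 CPM in WT and 104 ± 8.64 CPM in R409C/+ mice (log2 fold change -0.35, SE 0.16, unadjusted p = 0.0457 with edgeR). Its unadjusted p was under 0.05 in 7 of 17 alternatives. *Srxn1*, sulfiredoxin, which repairs overoxidized peroxiredoxins, had 13.6 ± 1.45 and 17.3 ± 0.966 CPM without overlap (log2 fold change 0.35, unadjusted p = 0.0543 with edgeR). *Txnip*, the thioredoxin inhibitor, was the most abundant and very uneven, with 648, 212, and 405 CPM in WT and 319, 784, and 476 CPM in R409C/+ mice.

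Glutathione synthesis and recycling, which feeds the glutathione peroxidases, had 0 higher and 1 lower of 8 tested and a median log2 fold change of 0.039. *Gclm*, the modifier subunit of glutamate-cysteine ligase, had 27.1, 30.9, and 24.0 CPM in WT and 20.0, 23.9, and 19.2 CPM in R409C/+ mice. Its groups did not overlap by a narrow margin, and the log2 fold change was -0.38 (SE 0.17, unadjusted p = 0.0422, adjusted p = 0.564 with edgeR's quasi-likelihood test). The unadjusted p of *Gclm* was under 0.05 in 11 of 17 alternatives. *Ggt5* had a log2 fold change of 0.30 with an adjusted p of 0.740 in edgeR's quasi-likelihood test, and the log2 fold change was 0.13 without WT replicate 2.

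For the supply of NADPH, which both peroxidase systems consume, 11 entries of 10 genes were tested, of which 1 was higher and 1 was lower, and the median log2 fold change was -0.12. *G6pdx*, the entry enzyme of the pentose phosphate pathway, was higher at 3.71 ± 0.817 CPM in WT and 5.45 ± 1.09 CPM in R409C/+ mice (log2 fold change 0.56, unadjusted p = 0.0461 with edgeR). Its unadjusted p was under 0.05 in 9 of 17 alternatives. *Idh2*, the mitochondrial NADP-dependent isocitrate dehydrogenase, was the most abundant, with 1034 ± 127 and 940.4 ± 150.3 CPM (log2 fold change -0.14, or -0.022 without R409C/+ replicate 1). *Nnt*, the proton-driven transhydrogenase of the inner mitochondrial membrane, is listed under 2 identifiers that divided its reads differently in each mouse, and the lower entry is 1 of these (log2 fold change -0.56, unadjusted p = 0.0289 with edgeR). With both added, it had 460, 513, and 411 CPM in WT and 276, 413, and 347 CPM in R409C/+ mice (log2 fold change -0.42, SE 0.18, unadjusted p = 0.0425, adjusted p = 0.565 with edgeR's quasi-likelihood test). The sum was formed after the values of the separate entries were seen. The other *Nnt* entry had 210, 59.5, and 22.9 CPM in WT and 53.0, 196, and 44.7 CPM in R409C/+ mice. Its log2 fold change was 0.0065 (SE 1.06). A part of the strain background or of the gene models in this split was not tested. Transcript counts also do not show whether a working *Nnt* enzyme was made.

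Targets and regulators of NRF2, the transcription factor of the oxidative stress response, had 3 higher and 1 lower of 25 tested, with a median log2 fold change of 0.067. *Hmox1*, heme oxygenase, had 2.83, 3.22, and 2.29 CPM in WT and 4.71, 4.85, and 6.97 CPM in R409C/+ mice. Every R409C/+ mouse was higher (log2 fold change 0.99, SE 0.25), and the adjusted p was 0.268 in edgeR's quasi-likelihood test. DESeq2 gave an adjusted p of 0.0381 for it, the lowest of its 17 alternatives, which reached up to 0.976. *Ftl1*, the ferritin light chain gene, had 138 ± 1.92 CPM in WT and 209 ± 45.9 CPM in R409C/+ mice without overlap (log2 fold change 0.60, SE 0.18, adjusted p = 0.352 with edgeR's quasi-likelihood test). *Fth1*, the heavy chain gene, had a log2 fold change of 0.095 (SE 0.18) and overlapped. The third higher gene and the lower one were *G6pdx* and *Gclm*, which other lists above also hold.

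**Figure D5:**
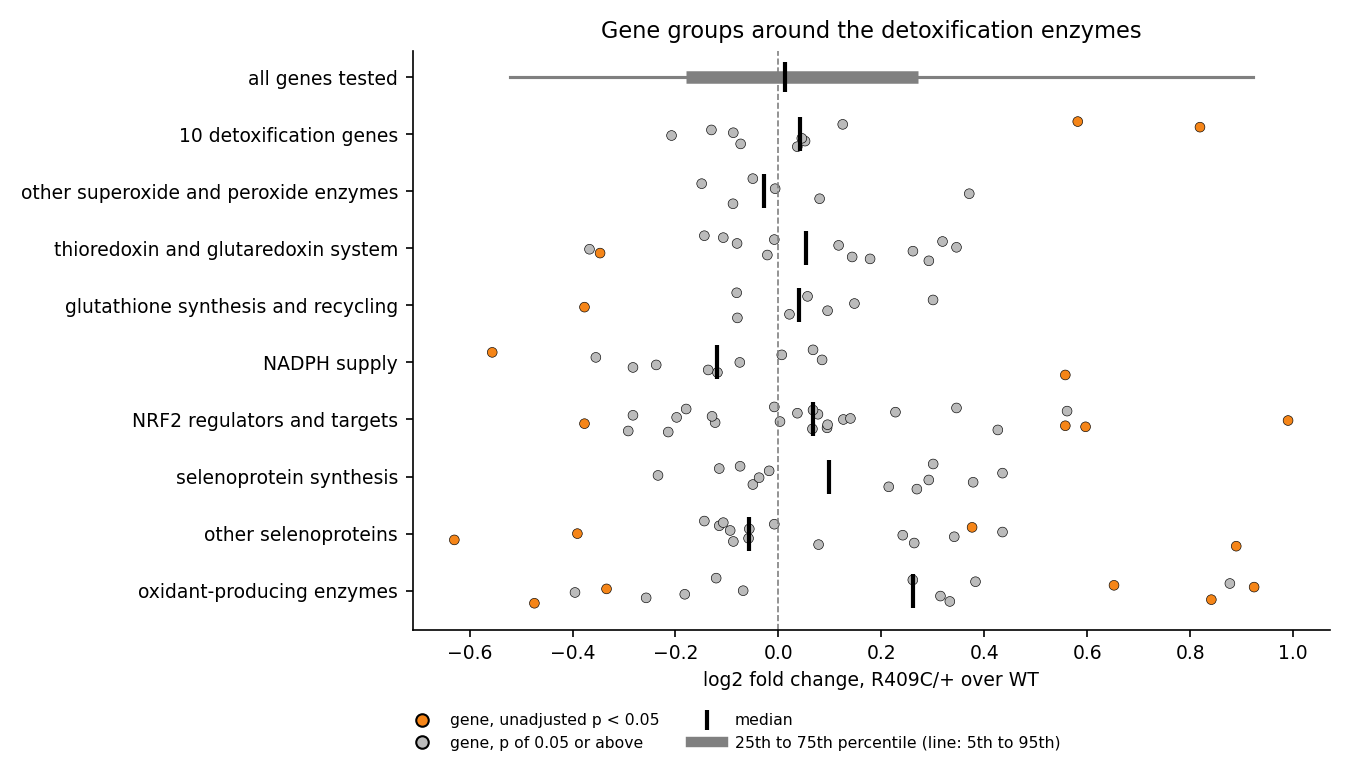
Log2 fold change of R409C/+ over WT mice (x axis, 0 dashed) of single genes (points, orange where the unadjusted edgeR p is under 0.05) in the 10 genes and in each surrounding list (y axis), with a black tick at each median. The grey bar shows all genes tested, and the medians of the lists lie between -0.12 for NADPH supply and 0.26 for oxidant-producing enzymes.

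*Gpx1*, *Gpx3*, and *Gpx4* need the machinery that inserts selenocysteine, of which 12 of 12 genes were tested, with 0 higher and 0 lower and a median log2 fold change of 0.098. *Selenop*, the secreted selenium carrier, had 272, 304, and 281 CPM in WT and 533, 316, and 309 CPM in R409C/+ mice, with R409C/+ replicate 1 far above the rest (log2 fold change 0.44, SE 0.21, unadjusted p = 0.0626 with edgeR). Without that library the log2 fold change of *Selenop* was 0.12 (unadjusted p = 0.413 with edgeR), and it was also 0.12 without both libraries with extreme mitochondrial shares. *Rpl30*, a ribosomal protein gene whose product also binds selenoprotein mRNA, had a log2 fold change of 0.38 and overlapped. Among the other selenoproteins, 2 were higher and 2 were lower of 17 tested, with a median log2 fold change of -0.057. *Selenow* had 43.9 ± 2.53 and 56.9 ± 4.41 CPM (log2 fold change 0.38, SE 0.15, adjusted p = 0.515 with edgeR's quasi-likelihood test), and with the length correction its log2 fold change was 0.16 (unadjusted p = 0.268 with edgeR). *Selenoi*, an ethanolamine phosphotransferase, had 27.5 ± 3.68 and 17.8 ± 2.24 CPM (log2 fold change -0.63, SE 0.17, adjusted p = 0.284 with the same edgeR test). The other higher and lower genes, named after their values were seen, were *Dio2* and *Selenoo*. Selenoproteins other than the glutathione peroxidases thus lay on both sides of 0, with 7 above and 10 below.

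Enzymes that produce superoxide or hydrogen peroxide had 3 higher and 2 lower of 15 tested, with a median log2 fold change of 0.26. *Cybb*, the catalytic subunit of the phagocyte NADPH oxidase, had 8.23, 9.20, and 7.62 CPM in WT and 19.5, 15.2, and 10.1 CPM in R409C/+ mice (log2 fold change 0.84, SE 0.23, adjusted p = 0.284 with edgeR's quasi-likelihood test). Without R409C/+ replicate 1 its log2 fold change was 0.60, and without both libraries with extreme mitochondrial shares it was 0.54 (unadjusted p = 0.0460 with edgeR). *Ncf1*, a cytosolic subunit of the same oxidase, had 3.35 ± 0.388 CPM in WT and 6.36 ± 0.646 CPM in R409C/+ mice (log2 fold change 0.92, SE 0.21, adjusted p = 0.215 with the same edgeR test). DESeq2 and edgeR's exact test gave *Ncf1* adjusted p-values of 0.0179 and 0.0288, the lowest of its 17 alternatives, which reached up to 0.976. The lower genes were *Aox1* and *Maob*, both named after their values were seen. *Xdh*, the most abundant gene of the list, had 76.3 ± 17.6 and 70.1 ± 11.7 CPM. Macrophage markers, given above, moved with these oxidase subunits, and their part was not tested.

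The promoters of the 10 genes were read from GRCm39, from 250 bases before to 50 bases after the start of the canonical transcript. They were searched for antioxidant response elements, which NRF2 targets carry. Sequence outside this window, where such elements can also lie, was not searched. The core TGACNNNGC was searched on both strands and was present in 3 of the 10 windows and in 12.5% of 21770 promoters of protein-coding genes. The matches are shown in capitals, along the strand of the gene, with 9 bases on each side:
Prdx1: agggaaagcGCTGAGTCAtcccccgta
Prdx6: cacttcctcTGACTTAGCccacgtcac
Sod1: gcgcgctgtGCAAAGTCAgtgacaatc

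The matches begin at positions -78 in *Prdx1* and -95 in *Sod1*, both as the reverse complement, and at -63 in *Prdx6*, counted from the transcript start. They lie at chr4:116542654-116542680, chr16:90017304-90017330, and chr1:161079144-161079170 with their flanks. The log2 fold changes of these 3 genes were 0.052, 0.037, and -0.13, in the order *Prdx1*, *Sod1*, and *Prdx6*, and these letters were not in the windows of *Gpx1* and *Gpx4*. A match is a description of the sequence and not a bound site.

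Genes on the opposite strand overlap exons of several of the 10, and how strand was treated in counting is not given in the sources used here. The longest such overlaps were 4217 bases of *Sod1* with *Scaf4*, 2603 bases of *Gpx3* with *Tnip1*, and 1232 bases of *Gpx1* with the noncoding gene *Gm57050*, which had 763 counts over the 6 mice. *Trmt112* overlaps 732 bases of *Prdx5*, and *Rnaseh2a* overlaps 765 bases of *Prdx2*. Reads in these stretches could belong to either gene.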

How the data were processed

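The authors deposited whole-number read counts per gene, without normalization, made from NEBNext libraries with Trim Galore, HISAT2, and StringTie on GRCm39 after rRNA was excluded. Versions, annotation release, and the way counts were taken from StringTie are not given in the sources used here. Of a deposited table of the authors' edgeR comparison (fold changes, log2 CPM, and p-values), only gene names were used.

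The analysis ran in edgeR 4.0.16 under R 4.3.3. filterByExpr retained 17212 of 56923 genes, and after TMM scaling the genotypes were compared by a robust quasi-likelihood fit, two-sided, with p-values adjusted after Benjamini and Hochberg over all genes tested, at 0.05. The common biological coefficient of variation was 26.1%. SE is the size of the log2 fold change divided by the square root of F. The fit was tested on simulated data. Positions, lengths, and sequences came from GENCODE vM39 on GRCm39, matched by identifier without its version (56236 found). The 3-count floor covers counting error only.

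The 10 genes, the lists, and the rules were chosen with earlier results of these data known. Also named are the 2 genes with the smallest unadjusted p and the most abundant gene of each list, the 5 genes most like the mean profile, and copies and overlapping genes. Alternatives were DESeq2 size factors, library size only, upper quartile, no filter, at least 10 counts in every mouse, mitochondrially encoded genes taken out, the Wald test of DESeq2 1.42.0, edgeR's exact test, a replicate block, a loess length correction (span 0.5), and omission of each mouse or of both libraries with extreme mitochondrial shares. Canonical and coding lengths and the sums of *Gpx4* with *Gpx4-ps2* and of both *Nnt* entries were added after the data were seen. 1 gene of the list of oxidant-producing enzymes is counted but not reported here by name.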

Additional observations from a re-analysis of the deposited data

How the results depend on the processing

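Of the 10 genes, 0 passed an adjusted p of 0.05 except with DESeq2's Wald test (1) and edgeR's exact test (1), in both cases *Gpx1*. The count at an unadjusted p under 0.05, 2 with all mice, was 0 with library size only, 1 without both libraries with extreme mitochondrial shares, and 1 to 2 with each mouse left out. Of all genes, 6 were higher at the adjusted threshold, and this became 15 with library size only, 19 without a filter, 143 with DESeq2's Wald test, 127 with edgeR's exact test, 3 with the length correction, 0 without both libraries, and 1 to 3 with each mouse left out. The 1 lower gene became 6 with library size only, 0 with 10 counts in every mouse, 15 with DESeq2's Wald test, 13 with edgeR's exact test, and 1 to 2 with each mouse left out. At an unadjusted p under 0.05, library size only gave 388 higher genes in place of 993 and 301 lower genes in place of 493, and the upper quartile gave 305 lower genes. The causes were not tested. Library size only moved the median log2 fold change of all genes from 0.012 to -0.14, a shift larger in size than most of the log2 fold changes of the 10 genes.

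The replicate numbers did not pair the samples: deviations of WT and R409C/+ mice with the same number correlated at -0.0013, 0.022, and -0.057, and 0 of 3 WT mice correlated best with their own number. With a replicate block, 0 genes were higher at the adjusted threshold and 324 were lower at the unadjusted one, and *Gpx1* had a log2 fold change of 0.82 with an adjusted p of 0.426 in edgeR's quasi-likelihood fit.

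*Sod2*, *Prdx3*, *Gpx1*, and *Gpx4* kept the sign of their log2 fold change under every alternative run. The sign of small fold changes turned as follows. With library size only, the log2 fold change was -0.099 for *Sod1*, -0.10 for *Prdx1*, -0.15 for *Prdx2*, -0.0025 for *Gpx3*, and -0.067 for *Fth1*. With the length correction, it was -0.063 for *Prdx1*, -0.057 for *Prdx2*, -0.031 for *Gpx3*, and -0.047 for *Fth1*. Without both libraries with extreme mitochondrial shares, it was -0.12 for *Prdx1*, 0.22 for *Prdx5*, 0.0019 for *Prdx6*, -0.11 for *Gpx3*, and 0.13 for *Xdh*. With each mouse left out in turn, it ranged from -0.19 to 0.23 for *Sod1*, -0.047 to 0.18 for *Prdx1*, -0.039 to 0.17 for *Prdx2*, -0.25 to 0.20 for *Prdx5*, -0.015 to 0.24 for *Gpx3*, -0.29 to 0.032 for *Cat*, -0.089 to 0.77 for *Txnip*, and -0.30 to 0.013 for *Xdh*. Among the list genes with an unadjusted p under 0.05, *Hmox1*, *Ftl1*, *Selenoi*, *Cybb*, and *Ncf1* stayed under it with each mouse left out. Over all 17 alternatives, it held in 17 for *Hmox1*, *Selenoi*, and *Ncf1*, 16 for *Ftl1* and *Cybb*, 12 for *Selenow*, 11 for *Gclm*, 9 for *G6pdx*, and 7 for *Sesn1*. The length correction gave no value for the lower *Nnt* entry, whose identifier had no length in the annotation. *Sesn1* (-0.43 to -0.29) lost it without WT replicate 1 or 3 or R409C/+ replicate 1 or 3, *Gclm* (-0.49 to -0.28) without WT replicate 1 or 2 or R409C/+ replicate 1 or 3, and *G6pdx* (0.39 to 0.69) without WT replicate 1 or 3 or R409C/+ replicate 2 or 3. The lower *Nnt* entry (-0.77 to -0.37) lost it without WT replicate 2 or 3 or R409C/+ replicate 1 or 2, and *Selenow* (0.32 to 0.43) without WT replicate 1 or 2 or R409C/+ replicate 1.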
